A study of Mus musculus with 6 samples.

Results

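The genes described here encode ion channels of the potassium, sodium, calcium and Clcn chloride families and the receptors for GABA, glycine, glutamate, acetylcholine, serotonin, dopamine and noradrenaline. They were chosen by name: a probe set was a member if its only annotated gene symbol began with Kcn, Cacn, Clcn, Gabr, Gria, Grik, Grid, Grin, Chrn or Chrm, with Adra or Adrb, with Glra or Glrb, or with Scn, Grm, Htr or Drd and a digit. The rule took 150 probe sets of 118 genes, out of 12422 probe sets and 8251 named genes on the array. It also took Grina, whose product is neither a channel nor a receptor, through its first 4 letters.

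The study asked how loss of the autoimmune regulator Aire alters gene expression in medullary thymic epithelial cells. Aire-deficient mice were B6/129 F2 animals in which the gene was disrupted on both copies, and the mice they were set against were wild type B6/129 F2 animals. Both groups were 3 to 5 weeks old, and each of the 3 arrays per group carried RNA from 1 pool of thymi of 5 mice of mixed sex. Cells were sorted as CD45 negative, positive for G8.8, intermediate for CDR1 and high for B7.1, which selects the mature medullary stage, and their RNA was amplified in 2 rounds with T7 polymerase. Which part of Aire was disrupted, and whether the animals of the groups were littermates, is not given in the labels. The values are linear signal intensities in arbitrary units, quantile normalized here.

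Ion channels open to let selected ions through the cell membrane, and in nerve and muscle they shape the action potential and its spread. Ionotropic receptors are channels that open when a transmitter binds, while muscarinic, dopamine, adrenergic and most serotonin receptors act through G proteins. Medullary thymic epithelial cells are known for transcribing many genes otherwise used in single tissues, a large share of them under the control of Aire, which exposes developing T cells to those products; the alpha subunit of the muscle acetylcholine receptor, the main autoantigen of myasthenia gravis, is among the best known examples.

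Before the results, the arrays themselves need a short account. The ratio of 3' to 5' probe set signals of beta-actin, a sign of how far amplification or RNA decay favoured the 3' end, was 4.38, 5.75 and 13.4 in Aire-deficient replicates 1 to 3, against 5.42, 95.8 and 13.8 in wild-type replicates 1 to 3, so wild-type replicate 2 stood apart. The Aire probe set read 202, 297 and 211 in Aire-deficient cells, against 59.9, 96.4 and 138 in wild-type cells (log2 difference 1.33 ± 0.35 SE, limma adjusted p = 0.0918, and 0.0191 with the replicate number as a block), and since the disrupted part and the position of the probes are not given, it does not check the genotype. Epithelial markers were present in both groups: Krt8 read 455, 367 and 268 in Aire-deficient cells and 270.2, 239 and 321 in wild-type cells, while the keratins Krt5 and Krt14, also among 20 listed markers of medullary epithelium, lay under a dim limit of 5.53 on all 6 arrays. Cd80, which encodes the sorted surface protein B7.1, read 8.80, 13.1 and 11.8 in Aire-deficient cells with 93905_at, against 3.52, 4.92 and 4.25 in wild-type cells, and overlapped with 93906_s_at. The summed signal of the medullary list ranged from 7632 to 8829 in Aire-deficient cells, higher than the 5124 to 6429 in wild-type cells. No probe set of that list passed the test. With the replicate number as a block, Epcam was called lower in Aire-deficient cells (log2 difference -1.14, adjusted p = 0.0315) and Aire higher. The only marker list with more than 1 probe set past the test was that of granulocytes, whose summed signal ranged from 67.6 to 81.2 in Aire-deficient cells and from 199 to 285 in wild-type cells, with Ltf, Ly6g, Ngp and Camp called lower, although the sort took CD45 negative cells. That of neurons and glia summed to between 81.5 and 115 in Aire-deficient cells and between 107 and 116 in wild-type cells, and that of muscle to between 102 and 111 in Aire-deficient cells and between 125 and 201 in wild-type cells. In either list 0 probe sets were called. The list of dendritic cells and macrophages summed to between 304 and 344 in Aire-deficient cells and between 352 and 490 in wild-type cells. Its probe sets went both ways, with a median log2 difference of -0.07 over 11 tested and 0 called. With the block, 1 was called lower, Cd14, at 68.3, 43.9 and 32.3 in Aire-deficient cells against 168, 207 and 92.2 in wild-type cells. The 2 called higher were Cd68 103016_s_at (log2 difference 1.65) and Fcer1g 162181_f_at (2.15). That of neuroendocrine and tuft cells summed to between 123 and 138 in Aire-deficient cells and between 148 and 153 in wild-type cells, with 1 probe set called lower. The sums of the remaining marker lists overlapped between groups.

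Most of the channel and receptor genes gave little or no signal. A signal was counted as above background if it passed that dim limit, the 40th percentile of all signals. Of 19 control probe sets for bacterial and yeast transcripts that are not added to such samples, 1 of 114 deposited values passed that limit, while 15 opposite-strand control probe sets passed it in 71 of 90 values and reached 33.7. A signal just above the limit therefore does not by itself show that a gene is transcribed. Of the 150 probe sets, 65 (43.3%) lay under the limit on all 6 arrays, against 23.5% of the 12272 other probe sets. Only 21 (14%) lay above it on all 6 arrays, against 43.4% of the others, and 64 lay above it on some arrays. By gene, 16 of 118 had a probe set above the limit on all 6 arrays, 47 had none above it on any array, and 55 lay between. The number of members above the limit was similar in both groups, with 55, 43 and 48 in Aire-deficient replicates 1 to 3, against 51, 49 and 43 in wild-type replicates 1 to 3.

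**Figure D1:**
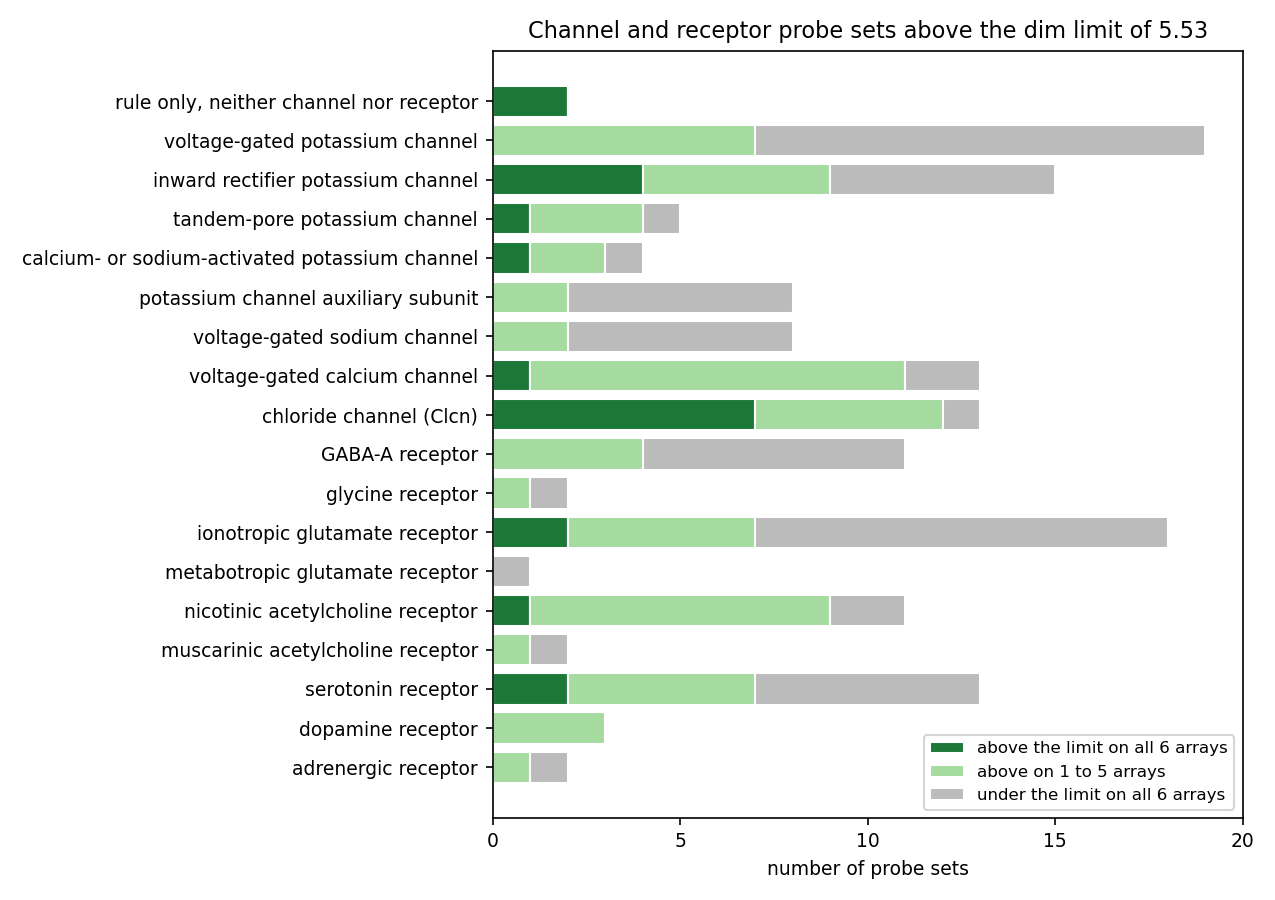
Number of probe sets in each class of channel or receptor that lay above the dim limit of 5.53 on all 6 arrays, on 1 to 5 arrays or on none; the x axis counts probe sets. Of the 13 Clcn probe sets, 7 lay above the limit on all 6 arrays, while none of the 8 sodium channel and 19 voltage-gated potassium channel probe sets did.

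The classes differed in how many of their probe sets lay above the limit. Among the dim classes, 6 of 8 probe sets of the voltage-gated sodium channels, which carry the upstroke of the action potential, 12 of 19 of the voltage-gated potassium channels, which end it, and 6 of 8 of the potassium channel auxiliary subunits lay under the limit on all 6 arrays. The same held for 7 of 11 probe sets of the GABA-A receptors and 11 of 18 of the ionotropic glutamate receptors, the main inhibitory and excitatory receptors of the brain. At the other end, 7 of 13 probe sets of the Clcn family, whose members work largely in intracellular vesicles, lay above the limit on all 6 arrays, and 1 of 13 lay under it on all 6. The nicotinic receptor, calcium channel and dopamine receptor classes were mixed, with 8 of 11, 10 of 13 and 3 of 3 probe sets above the limit on 1 to 5 arrays. The stacked bars by class show this division.

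A difference between the groups was tested where a probe set passed the limit on at least 3 of the 6 arrays, which held for 51 members of 43 genes (34.0%, against 62.9% of the other probe sets). In limma's test with Benjamini-Hochberg adjustment over all 7768 probe sets tested, 0 of the 51 members passed an adjusted p of 0.05 as lower in Aire-deficient cells and 0 as higher. Over all probe sets 107 (1.38%) were called lower and 27 (0.348%) higher, so a count of 0 among 51 is near that background. At an unadjusted p under 0.05, 5 of the 51 members (9.80%) passed, 3 lower and 2 higher in Aire-deficient cells, against 14.3% of all tested. The labels do not say what the replicate numbers mean. Arrays of 1 number were treated as pairs because their values correlated in these same data. A fit with the number as a block therefore rests on no known paired design. In that fit 0 members were called lower, against 262 (3.37%) of all, and 1 higher, against 150 (1.93%) of all. The 1 was the glutamate receptor subunit Gria1, whose probe set was tested only because it passed the limit on all 3 Aire-deficient arrays.

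Members lay on both sides of no difference, with 25 below and 26 above 0. Their log2 differences ranged from -1.94 to 2.43 with a median of 0.03, against a median of 0.05 over all tested probe sets. Their standard errors were wide, with a median of 0.48, against 0.39 over all tested. The 95% interval reached past a 2-fold change in 48 of the 51 and stayed within 2-fold either way in 3, so most members were not measured closely enough to bound a 2-fold change. The measured difference was under 2-fold for 43 members and at least 2-fold for 8.

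**Figure D2:**
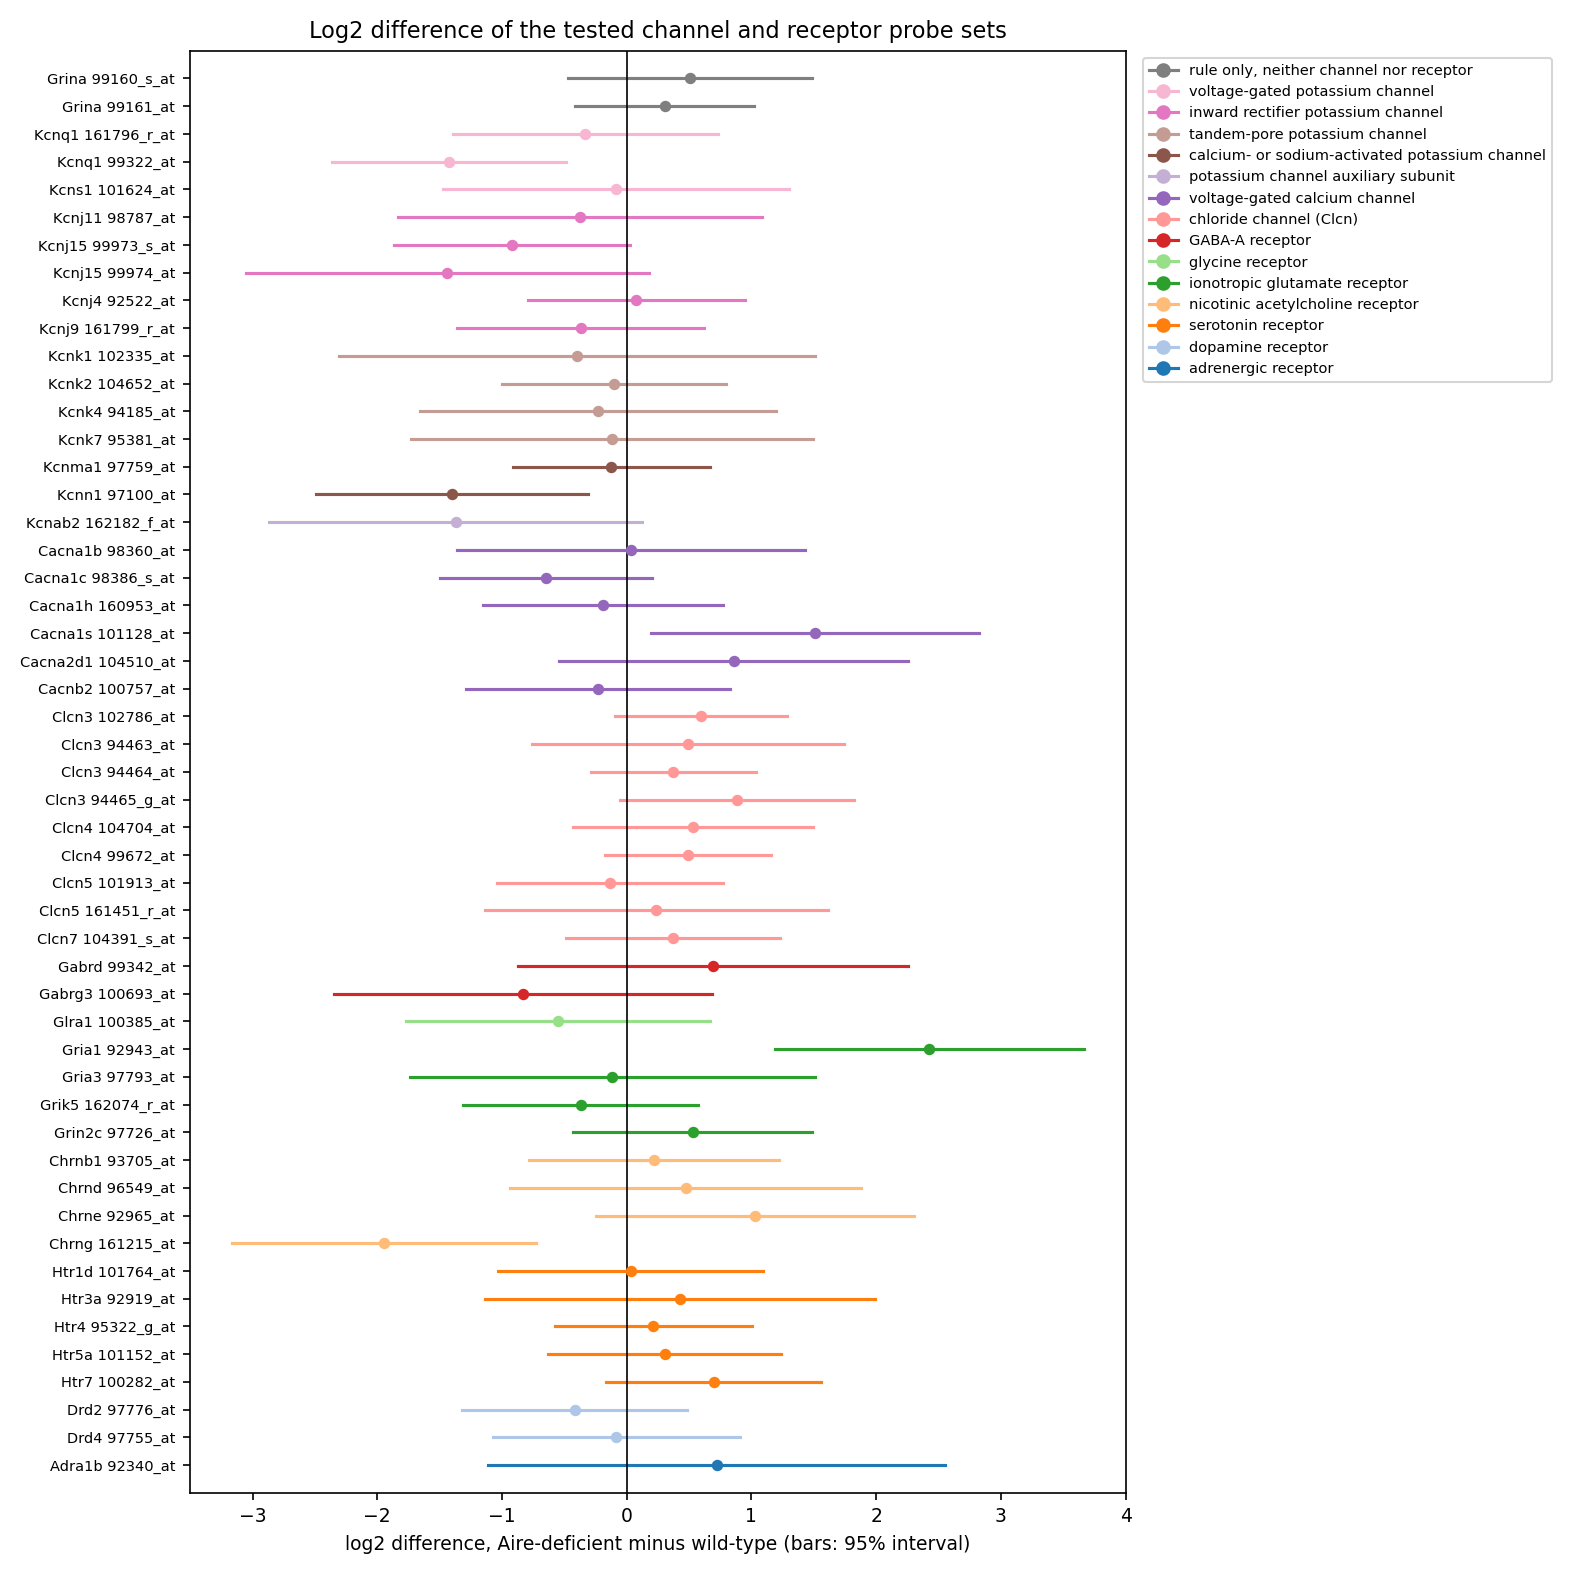
Log2 difference in normalized signal, Aire-deficient minus wild-type, of the 51 tested probe sets on the x axis; points are the limma estimates, bars their 95% intervals, colours the classes. Gria1 lies farthest right at 2.43 and Chrng farthest left at -1.94, and the intervals of most others span 0.

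The groups did not overlap and differed by at least 2-fold in 6 tested members, 3 lower and 3 higher in Aire-deficient cells. That is 5.88% of the 51 in each direction, against 5.27% lower and 3.99% higher among all tested probe sets. The 3 lower ones were the muscle acetylcholine receptor subunit Chrng and the potassium channels Kcnq1 and Kcnn1. The 3 higher ones were Gria1, the muscle calcium channel Cacna1s and the muscle acetylcholine receptor subunit Chrne. For 4 of the 6, namely Gria1, Chrne, Chrng and Kcnq1, the probe set was tested only because it passed the limit on all 3 arrays of its brighter group, and on none of the other, so a difference between groups was built into its being tested. In sorted but bulk samples like these, fewer cells of a kind and less RNA per cell cannot be told apart.

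**Figure D3:**
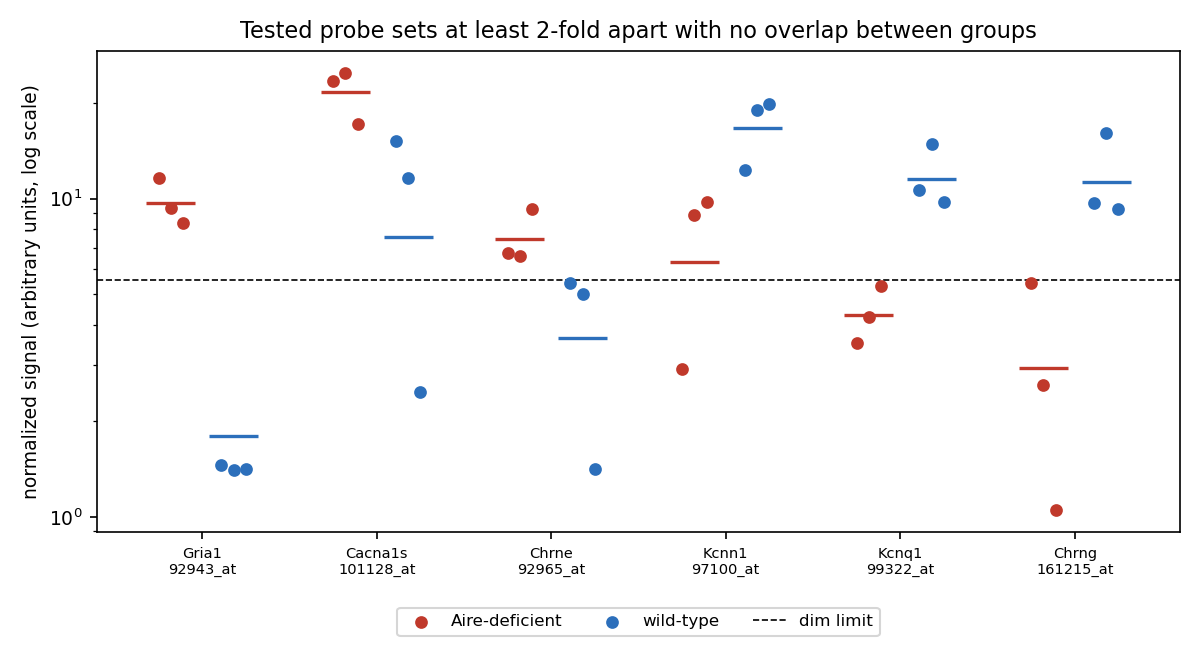
Normalized signal on a log axis of the 6 tested probe sets whose groups did not overlap and differed by at least 2-fold; each point is an array, Aire-deficient left and wild-type right, short lines are geometric means of signals raised to the floor of 1.8, and the dashed line is the dim limit of 5.53. The 3 Gria1 points of Aire-deficient cells lie between 8.37 and 11.6 and the 3 wild-type points between 1.40 and 1.45.

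Among the ionotropic glutamate receptors, which open to glutamate at most excitatory synapses of the brain, Gria1 stood out. Gria1 encodes a subunit of AMPA receptors, the fast-acting class. Its probe set 92943_at read 11.6, 9.35 and 8.37 in Aire-deficient replicates 1 to 3, against 1.45, 1.40 and 1.42 in wild-type replicates 1 to 3. All Aire-deficient arrays were above the dim limit and all wild-type arrays were under the floor of 1.8 to which low signals were raised, so the fold is given as a bound of at least 1.75-fold higher in Aire-deficient cells. The fitted log2 difference, which depends on that floor, was 2.43 ± 0.56 (SE, n = 3 per group), with a limma adjusted p of 0.0609, and one of 0.0472 when the replicate number entered as a block. Since all 3 wild-type signals were raised to the floor, their log2 spread was 0. The adjusted p-values of this probe set therefore rest on no measured wild-type spread. Without a variance trend in limma the adjusted p was 0.00761 and with array weights 0.0385. With the floor at the 40th percentile the log2 difference was 0.81 and the adjusted p 0.125. Without any 1 wild-type array it was 0.126 to 0.130, and without an Aire-deficient array the probe set no longer met the rule for being tested. The second Gria1 probe set, 92944_at, read between 0.567 and 1.20 on all 6 arrays, under the floor in both groups, and so gave no difference. The levels in Aire-deficient cells lay inside the range of the opposite-strand controls.

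The other glutamate receptor genes were mostly dim. All 4 probe sets of Gria2, the subunit that keeps AMPA receptors closed to calcium, lay under the limit on all 6 arrays, as did the single probe sets of Gria4, Grik1 and Grin2a and both of Grik2. Grin2c, an NMDA receptor subunit best known from the cerebellum, was the exception and read 56.4, 112 and 115 in Aire-deficient cells, against 35.9, 104 and 64.3 in wild-type cells. Those groups overlapped, and the log2 difference was 0.53 ± 0.43 (SE; limma adjusted p = 0.631). Replicate 1 was the lowest in both groups. The kainate receptor subunit Grik5 was split between its probe sets: 162074_r_at read 17.3, 10.1 and 15.8 in Aire-deficient cells and 21.2, 27.9 and 10.1 in wild-type cells (log2 difference -0.37), while 104409_at stayed under the limit on all 6 arrays, between 0.800 and 5.17. The NMDA receptor subunits Grin2b and Grin2d and the delta receptor Grid1 passed the limit on 1 or 2 arrays only. Gria3, the remaining AMPA receptor subunit, was tested and differed by -0.12, with a sign that turned in other settings. Grm8, a metabotropic receptor that damps glutamate release, lay under the limit on all 6 arrays, at 4.45, 3.90 and 3.52 in Aire-deficient cells and 2.45, 0.567 and 0.567 in wild-type cells.

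The nicotinic acetylcholine receptor of muscle is built from the alpha subunit Chrna1, the beta subunit Chrnb1, the delta subunit Chrnd, and either the gamma subunit Chrng before birth or the epsilon subunit Chrne in adult muscle. Promoters of Chrna1 and Chrng are shown because the muscle subunits are the class in which the largest lower reading was found. In muscle, MyoD and related factors favour the hexamer CAGCTG, which reads the same on both strands. Each sequence is 300 bases of GRCm38.p6 from RefSeq, from 250 bases before to 50 after the annotated start, written 5′ to 3′ along the gene, with CAGCTG in capitals; Chrna1 lies at chr2:73580289-73580588 on the minus strand and Chrng at chr1:87205561-87205860 on the plus strand.
Chrna1: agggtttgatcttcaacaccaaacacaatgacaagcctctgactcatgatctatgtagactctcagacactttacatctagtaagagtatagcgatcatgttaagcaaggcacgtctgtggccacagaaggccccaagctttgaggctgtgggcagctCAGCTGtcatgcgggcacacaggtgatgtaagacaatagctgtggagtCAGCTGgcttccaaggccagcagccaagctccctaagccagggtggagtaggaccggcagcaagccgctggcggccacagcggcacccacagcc
Chrng: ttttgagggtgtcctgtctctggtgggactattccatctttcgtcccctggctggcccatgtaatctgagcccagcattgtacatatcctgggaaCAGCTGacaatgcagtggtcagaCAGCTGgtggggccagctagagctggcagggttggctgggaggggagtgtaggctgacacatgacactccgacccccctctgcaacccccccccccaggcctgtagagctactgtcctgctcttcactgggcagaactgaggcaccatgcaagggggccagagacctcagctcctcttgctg
Both hold 2 copies of the hexamer. Of 32851 mouse promoters of this length, 16.3% held at least 1 copy and 1.90% at least 2. The Chrne promoter held 1 and that of Chrnb1 0, and none was found for Chrnd. The printed promoters thus hold the most copies among those found for the muscle subunits. Whether the hexamer goes with signal was not tested. A match describes the letters and is not a measured site.

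Chrng, the fetal subunit, read 5.42, 2.60 and 1.05 in Aire-deficient replicates 1 to 3 with its probe set 161215_at, against 9.69, 16.1 and 9.25 in wild-type replicates 1 to 3. All Aire-deficient arrays lay under the dim limit and all wild-type arrays above it, so the signal was at least 2.04-fold lower in Aire-deficient cells. The log2 difference was -1.94 ± 0.55 (SE, n = 3 per group) with a limma adjusted p of 0.123, and of 0.0630 with the block. Without 1 Aire-deficient array it was -2.39 to -1.58, and without a wild-type array the probe set no longer met the rule for being tested. The second Chrng probe set, 95639_at, ran the other way, at 1.57, 7.83 and 4.45 in Aire-deficient cells and 2.67, 1.88 and 1.67 in wild-type cells, with 1 array above the limit, and was not tested. The gene's probe sets therefore disagreed.

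Chrne, the adult subunit, read 6.77, 6.62 and 9.25 in Aire-deficient cells with 92965_at, against 5.43, 5.00 and 1.42 in wild-type cells. All Aire-deficient arrays were above and all wild-type arrays under the limit, at least 1.35-fold higher in Aire-deficient cells. The log2 difference of 1.03 ± 0.58 (SE; limma adjusted p = 0.469) was 0.52 without wild-type replicate 3, the lowest array. Its other probe sets, 92966_g_at and 92967_r_at, were not tested, and their groups overlapped. The first read 1.02, 2.07 and 0.917 in Aire-deficient cells, against 0.567, 1.80 and 4.55 in wild-type cells. The second read 3.15, 7.32 and 1.88 in Aire-deficient cells, against 0.917, 7.22 and 2.07 in wild-type cells, and was high in replicate 2 of each. Chrna1, which carries most of the acetylcholine binding site, read 0.467, 2.95 and 0.200 in Aire-deficient cells and 2.94, 6.82 and 6.84 in wild-type cells. It passed the limit on 2 wild-type arrays and on no Aire-deficient array, so it was not tested, and wild-type replicate 1 lay within the range of the Aire-deficient arrays.

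The remaining muscle subunits overlapped between groups. Chrnb1 read 11.6, 19.2 and 13.5 in Aire-deficient cells and 15.2, 6.27 and 20.02 in wild-type cells (log2 difference 0.22 ± 0.45 SE), and its direction turned in other settings. Chrnd read 8.07, 4.45 and 5.80 in Aire-deficient cells, against 6.12, 1.30 and 7.07 in wild-type cells (log2 difference 0.47 ± 0.64 SE), and its direction turned likewise. Chrnd and Chrng are neighbours within 500 kb on chromosome 1. Myog, the muscle regulator myogenin, was read at 45.4, 30 and 24.4 in Aire-deficient cells and at 35.1, 60.3 and 21.9 in wild-type cells, and overlapped too. The muscle list summed lower in Aire-deficient cells, as given above, and its part in the readings of these subunits was not tested.

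**Figure D4:**
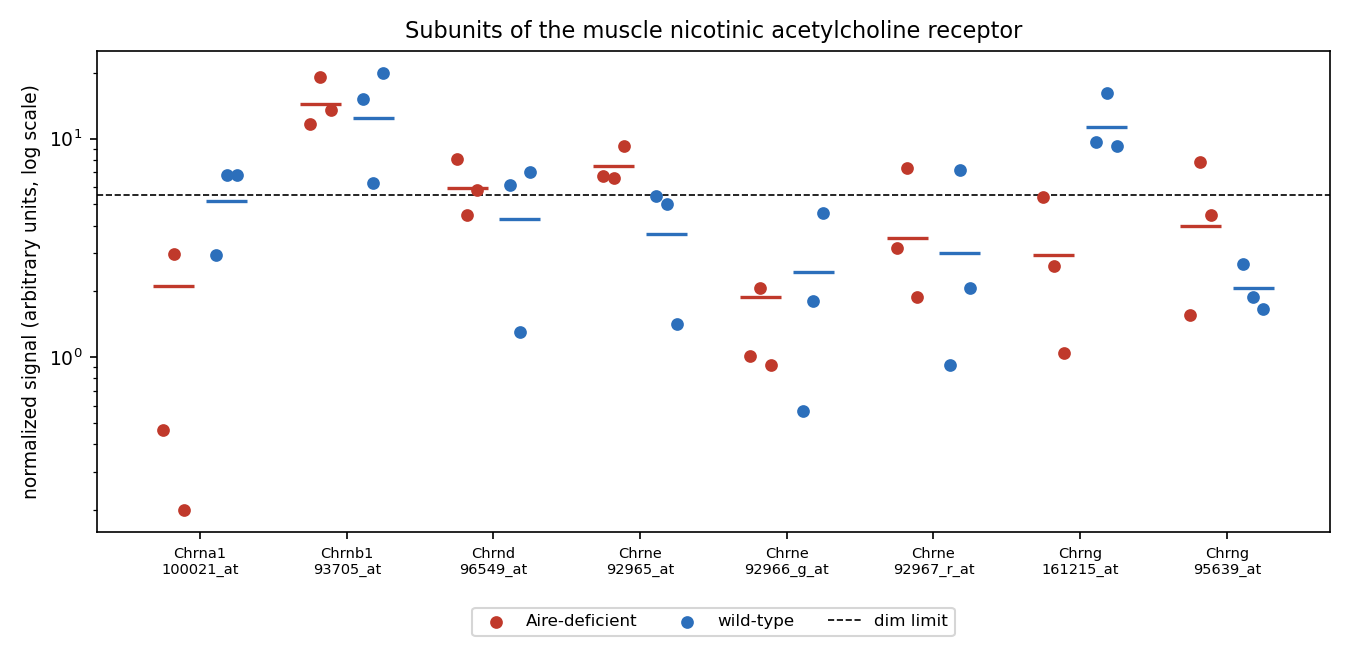
Normalized signal on a log axis of the probe sets of the 5 muscle acetylcholine receptor subunits; each point is an array, Aire-deficient left and wild-type right, short lines are geometric means of signals raised to the floor of 1.8, and the dashed line is the dim limit of 5.53. The Chrng probe set 161215_at and the Chrne probe set 92965_at separate the groups in opposite directions, and their other probe sets do not follow them.

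None of the nicotinic subunits of the nervous system passed the limit on enough arrays to be tested. Chrna7, which forms channels of a single subunit type, read 4.03, 2.60 and 1.68 in Aire-deficient cells and 8.26, 13.7 and 1.87 in wild-type cells, with 2 wild-type arrays above the limit. Chrna6 passed the limit on 1 array of each group, and Chrnb2 on none. Of the muscarinic receptors, Chrm4 lay under the limit on all 6 arrays, and Chrm1 passed it on 1 Aire-deficient array, at 7.53.

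Potassium channels set the resting potential and repolarise the cell. Of 15 tested potassium channel probe sets, 14 had a log2 difference below 0 and 1 above, and 0 passed the adjusted test. Kcnq1 and Kcnj15 each gave 2 of the 15. The direction was not tested as a group, 7 of the 14 and the 1 above 0 turned sign in at least 1 other setting, and among all tested probe sets 3641 lay below 0 and 4127 above. Kcnq1 encodes a slow voltage-gated channel of heart, inner ear and epithelia. Its probe set 99322_at read 3.52, 4.25 and 5.33 in Aire-deficient replicates 1 to 3, against 10.6, 14.8 and 9.75 in wild-type replicates 1 to 3. All Aire-deficient arrays lay under the limit and all wild-type arrays above it, at least 2.09-fold lower in Aire-deficient cells. The log2 difference was -1.42 ± 0.42 (SE) with a limma adjusted p of 0.145, and of 0.0912 with the block. The second Kcnq1 probe set, 161796_r_at, overlapped, at 14.8, 4.35 and 7.07 in Aire-deficient cells and 8.26, 10.8 and 10.1 in wild-type cells (log2 difference -0.33). Kcne1, a small partner subunit of Kcnq1 channels, lay under the limit on all 6 arrays.

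Kcnn1, a channel opened by intracellular calcium, read 2.92, 8.90 and 9.75 in Aire-deficient cells, against 12.3, 18.9 and 19.9 in wild-type cells. The groups did not overlap, and replicate 1 was the lowest in each. The log2 difference was -1.40 ± 0.49 (SE; limma adjusted p = 0.224, and 0.0549 with the block), and -0.84 without Aire-deficient replicate 1. Kcnma1, the large-conductance channel opened by calcium and voltage, was above the limit on all 6 arrays, at 14.7, 14.1 and 15.5 in Aire-deficient cells and 10.6, 22.4 and 17.4 in wild-type cells, and showed no separation (log2 difference -0.12 ± 0.36 SE). Kcnn4, an intermediate-conductance relative of Kcnn1, passed the limit on 1 array, and Kcnu1 on 0.

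The inward rectifiers let potassium in more easily than out. Both probe sets of Kcnj15 were above the limit on all 6 arrays and read lower on average in Aire-deficient cells. With 99974_at they were 7.17, 13.0 and 11.8 in Aire-deficient cells and 21.2, 112 and 9.15 in wild-type cells (log2 difference -1.44 ± 0.73 SE; limma adjusted p = 0.416), and with 99973_s_at 6.02, 12.4 and 7.93 in Aire-deficient cells and 13.6, 25.9 and 11.5 in wild-type cells (-0.92 ± 0.43 SE; adjusted p = 0.366). The groups overlapped in each, and wild-type replicate 2, the array with the highest 3' to 5' ratio, was far the highest. Without that array the log2 difference was -0.44 for 99974_at and -0.58 for 99973_s_at. With the 3' bias as a covariate it was -0.50 for 99974_at and -0.59 for 99973_s_at. Kcnj9, a channel opened by G proteins, was read very differently by its probe sets: 161799_r_at gave 115, 85.2 and 69.3 in Aire-deficient cells and 152, 52.8 and 181 in wild-type cells, while 98332_at gave between 1.68 and 6.17 on all 6 arrays. Kcnj3, Kcnj5 and Kcnj6, its partners in such channels, passed the limit on 1, 0 and 1 arrays. Kcnj4 was steady, at 8.80, 8.17 and 7.20 in Aire-deficient cells and 9.02, 5.95 and 8.20 in wild-type cells. Kcnj11, the pore of the ATP-sensitive channel of beta cells, passed the limit on 3 arrays and differed by -0.37, and Kcnj8, its relative in vessels, passed on 0. Kcnj2 and Kcnj12, the rectifiers of heart and muscle, lay under the limit on all 6 arrays, and Kcnj1 of the kidney passed on 1.

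Of the tandem-pore channels, which carry background potassium current, Kcnk2 was above the limit on all 6 arrays, at 6.56, 7.07 and 6.42 in Aire-deficient cells and 7.93, 6.27 and 7.40 in wild-type cells. Kcnk1, Kcnk4 and Kcnk7 each passed on 4 arrays with overlapping groups, and Kcnk3 read under 1 on all 6 arrays. The voltage-gated Kcna family, the Shaker-type channels of nerve and muscle, had 1 array above the limit among its 8 probe sets. Of the other voltage-gated genes, Kcnh2, the rapid repolarising channel of the heart, passed on 2 arrays, Kcnc1 and Kcnd3 on 1 each, Kcnd1, Kcnd2, Kcnh1 and Kcns2 on 0, and Kcns1 was tested and differed by -0.08. Of the auxiliary subunits, Kcnab1, Kcne1l and Kcnmb1 lay under the limit on all 6 arrays, and Kcnab2 was the only one tested. Its probe set 162182_f_at read 1.68, 2.07 and 8.75 in Aire-deficient cells and 5.70, 10.9 and 9.03 in wild-type cells (log2 difference -1.37 ± 0.68 SE, limma adjusted p = 0.396). With the floor at the 40th percentile the log2 difference was -0.36. The second Kcnab2 probe set, 102892_at, read between 0.567 and 4.25, under the limit on all 6 arrays. Kcnab3, a beta subunit of Kcna channels, was not tested, though its groups did not overlap: it read 7.93, 5.17 and 5.90 in Aire-deficient cells, against 2.08, 0.917 and 0.300 in wild-type cells.

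Voltage-gated sodium channels gave almost no signal, and 0 of their 8 probe sets could be tested. Scn8a, the main channel of the axon's initial segment, passed the limit with 1 probe set on 1 Aire-deficient array, at 9.83, and on 1 wild-type array, at 7.83. For Scn1a, a channel of inhibitory neurons, probe set 162255_s_at read 1.23, 1.27 and 0.300 in Aire-deficient cells, against 7.20, 4.25 and 2.80 in wild-type cells, without overlap and with 1 array above the limit. The second Scn1a probe set, 94201_at, read between 0.300 and 1.67 on all 6 arrays, under the floor in both groups. The neighbours of Scn1a on chromosome 2, Scn7a and Scn9a, lay under the limit on all 6 arrays, as did Scn3a and Scn10a.

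Voltage-gated calcium channels couple a change of voltage to calcium entry. Cacna1s, the voltage sensor of skeletal muscle contraction, read 23.5, 24.9 and 17.2 in Aire-deficient replicates 1 to 3, against 15.2, 11.6 and 2.47 in wild-type replicates 1 to 3. The groups did not overlap, and wild-type replicate 3 was far under the others. The log2 difference was 1.51 ± 0.60 (SE; limma adjusted p = 0.275, and 0.0624 with the block), and 0.70 without that array. Cacna2d1, an auxiliary subunit of muscle and nerve channels, showed the same low array, at 17.0, 25.0 and 14.5 in Aire-deficient cells and 10.1, 28.9 and 3.52 in wild-type cells (0.86 ± 0.63 SE), with overlap. Cacna1c, the channel of heart and smooth muscle, lay lower without overlap, at 6.77, 10.4 and 5.58 in Aire-deficient cells and 10.6, 12.2 and 11.6 in wild-type cells, a log2 difference of -0.65 ± 0.38 (SE; limma adjusted p = 0.493). Cacna1b, Cacna1h and Cacnb2 were tested and overlapped, with log2 differences of 0.04, -0.19 and -0.23, each of which turned sign in other settings. Cacna1a, the channel of many brain synapses, Cacna1e, Cacna1g, Cacng1, Cacng2 and Cacna2d3 passed the limit on at most 1 array per probe set.

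The Clcn genes encode chloride channels of the cell surface (Clcn1 and Clcn2) and chloride and proton exchangers of endosomes and lysosomes (Clcn3, Clcn4, Clcn5 and Clcn7). Each of the 4 exchangers had a probe set above the limit on all 6 arrays. The promoter of Clcn3 is shown because its gene has probe sets above all opposite-strand controls on every array; it lies at chr8:60983262-60983561 on the minus strand of GRCm38.p6 (RefSeq, the same window), with CG in capitals.
Clcn3: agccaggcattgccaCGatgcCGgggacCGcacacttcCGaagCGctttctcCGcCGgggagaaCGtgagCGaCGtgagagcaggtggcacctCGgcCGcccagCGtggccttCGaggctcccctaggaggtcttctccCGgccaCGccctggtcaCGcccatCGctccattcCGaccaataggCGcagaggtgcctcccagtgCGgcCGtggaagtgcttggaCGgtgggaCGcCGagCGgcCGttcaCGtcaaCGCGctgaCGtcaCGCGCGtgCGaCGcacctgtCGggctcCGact
It holds 38 CG dinucleotides, and 4.95% of the 32851 promoters held as many or more, with a median of 7 over all of them. A second annotated Clcn3 promoter holds 8, and the one with more CG was printed. The Chrng promoter printed above holds 2 and that of Chrna1 7. Whether CG content goes with signal was not tested.

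Clcn3, with 4 probe sets, read higher on average in Aire-deficient cells with each. With 102786_at it read 326, 308 and 320.2 in Aire-deficient replicates 1 to 3, against 284, 134 and 246 in wild-type replicates 1 to 3. The groups did not overlap, and wild-type replicate 2, the array with the highest 3' to 5' ratio, was the lowest. The log2 difference was 0.59 ± 0.31 (SE, n = 3 per group; 95% interval -0.10 to 1.28; limma adjusted p = 0.436), 0.26 without that array, 0.25 with the 3' bias as a covariate and 0.92 on the values as deposited. With 94465_g_at it was 95.8, 89.4 and 94.0 in Aire-deficient cells and 83.8, 24.6 and 62.4 in wild-type cells (0.88 ± 0.42 SE; adjusted p = 0.379), and 0.37 without wild-type replicate 2. The probe sets 94464_at and 94463_at overlapped and differed by 0.37 and 0.49. What the 3' to 5' ratio contributed was not tested beyond these values.

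Clcn4 read 32.2, 37.8 and 30.5 in Aire-deficient cells with 99672_at and 27.3, 20.4 and 23.8 in wild-type cells, without overlap (log2 difference 0.49 ± 0.30 SE; limma adjusted p = 0.504). With 104704_at it read 62.3, 43.1 and 47.7 in Aire-deficient cells and 58.5, 17.3 and 41.5 in wild-type cells, with overlap (0.53 ± 0.44 SE). Clcn5, the exchanger of kidney endosomes, read 30.7, 67.2 and 63.1 in Aire-deficient cells and 35.5, 79.8 and 61.0 in wild-type cells with 101913_at, and in both groups replicate 1 was the lowest. Clcn7, the lysosomal exchanger that osteoclasts need, read 10.3, 9.25 and 8.85 in Aire-deficient cells and 6.52, 6.06 and 9.85 in wild-type cells with 104391_s_at (0.37 ± 0.39 SE). Clcn1, the chloride channel of skeletal muscle, passed the limit on 1 array with 1 of its probe sets, and Clcn2 on 2 arrays. The 9 tested Clcn probe sets came from 4 genes, with 4 probe sets from Clcn3 alone, so they are not independent readings. Of the 9, 8 lay above 0 and 1 below, with a median of 0.49, against 0.05 over all tested, and 0 passed the test. With the 3' bias as a covariate the sign of Clcn4 104704_at turned, to -0.038, and that of Clcn5 101913_at, to 0.29; it was 0.11 on the values as deposited. The sign of Clcn5 161451_r_at turned without 1 array.

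**Figure D5:**
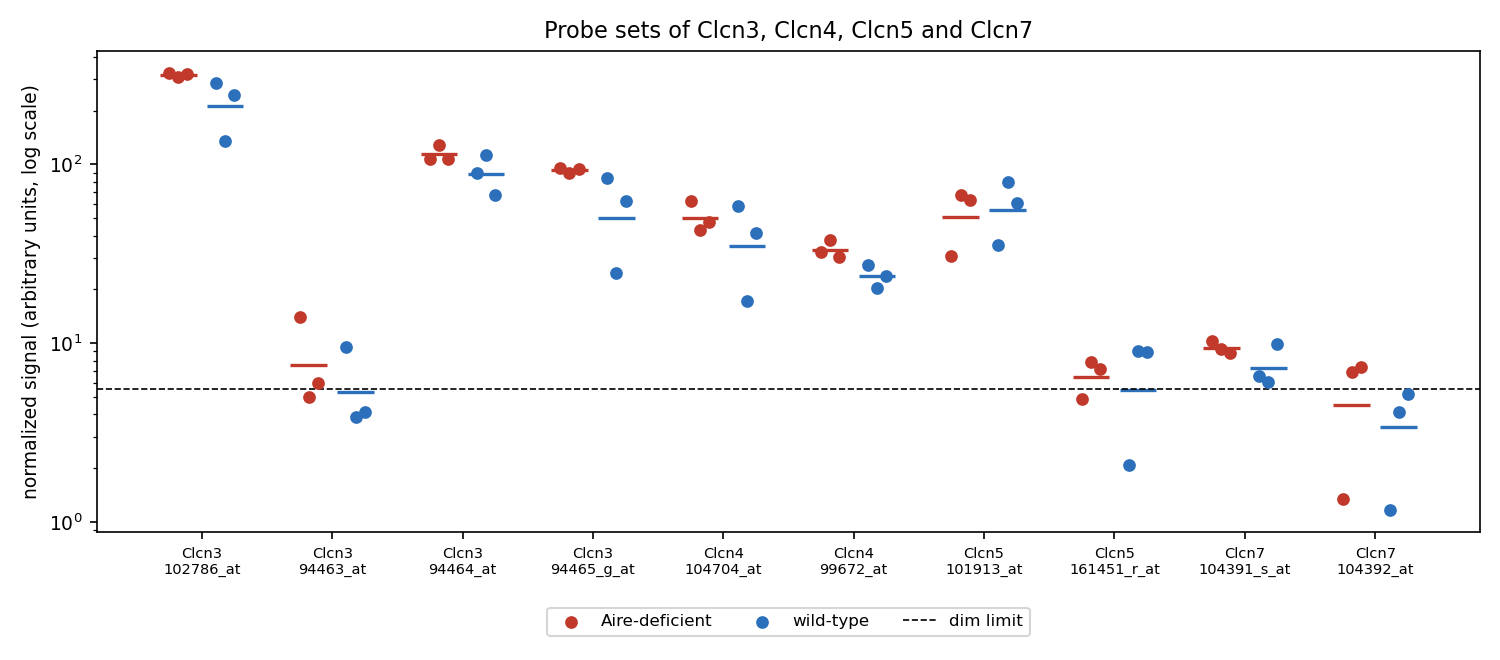
Normalized signal on a log axis of probe sets of Clcn3, Clcn4, Clcn5 and Clcn7; each point is an array, Aire-deficient left and wild-type right, short lines are geometric means of signals raised to the floor of 1.8, and the dashed line is the dim limit of 5.53. The low wild-type points of Clcn3 102786_at (134), Clcn3 94465_g_at (24.6) and Clcn4 104704_at (17.3) are all from wild-type replicate 2.

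GABA-A and glycine receptors are chloride channels that inhibit neurons. Only Gabrd and Gabrg3 among 10 GABA-A receptor genes were tested. Gabrd, a subunit of receptors outside synapses, read 6.65, 6.98 and 2.88 in Aire-deficient cells and 2.67, 0.767 and 6.62 in wild-type cells (log2 difference 0.69 ± 0.71 SE). Gabrg3 read 5.73, 0.817 and 2.37 in Aire-deficient cells and 5.60, 7.15 and 3.43 in wild-type cells (-0.83 ± 0.69 SE). Both overlapped. The alpha subunits Gabra2, Gabra3 and Gabra6 lay under the limit on all 6 arrays, as did Gabrb2 and Gabrg1, and Gabrb1 and Gabrr1 passed it on 1 array each. Gabrr2, a subunit first known from the retina, also lay under it on all 6, although its groups did not overlap, at 1.47, 1.95 and 1.78 in Aire-deficient cells and 2.67, 4.82 and 3.13 in wild-type cells. Glra1, the glycine receptor subunit of the spinal cord, read 12.1, 2.70 and 6.60 in Aire-deficient cells and 9.02, 10.2 and 7.32 in wild-type cells (-0.55 ± 0.55 SE), with overlap, and its partner Glrb lay under the limit on all 6 arrays.

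Of the serotonin receptors 5 were tested, and all 5 averaged above 0, by 0.03 to 0.70, with 0 past the test. The sign of 4 of the 5, all but Htr7, turned in at least 1 other setting, mostly without 1 array. Htr7, which raises cyclic AMP, read 9.42, 8.99 and 10.03 in Aire-deficient cells, against 6.42, 5.07 and 6.10 in wild-type cells. These groups did not overlap, and the spread within each was small. The log2 difference was 0.70 ± 0.39 (SE; limma adjusted p = 0.465). Htr5a read 19.9, 19.5 and 13.7 in Aire-deficient cells and 19.7, 19.1 and 7.50 in wild-type cells, with overlap. Htr4, a receptor of gut and brain, read 22.9, 15.9 and 10.8 in Aire-deficient cells and 13.9, 14.1 and 12.9 in wild-type cells with 95322_g_at, while 95321_at read under 1 on all 6 arrays. Htr3a, the only serotonin receptor type that is a channel, read 8.07, 9.88 and 3.30 in Aire-deficient cells and 3.52, 13.0 and 2.37 in wild-type cells. Htr2b passed the limit on 1 array, and Htr1a, Htr1b, Htr1f, Htr2c and Htr5b on 0. The neighbour of Htr3a within 500 kb on chromosome 9, the dopamine receptor Drd2, lay slightly lower without overlap, at 6.97, 4.82 and 8.03 in Aire-deficient cells and 8.08, 9.35 and 8.48 in wild-type cells (-0.42 ± 0.41 SE; limma adjusted p = 0.702). Drd4 read 8.16, 6.43 and 10.9 in Aire-deficient cells and 11.4, 11.6 and 5.17 in wild-type cells, and Drd3 passed the limit on 1 array. Adra1b, a noradrenaline receptor of vessels and liver, read 1.23, 8.45 and 8.23 in Aire-deficient cells and 1.70, 7.22 and 2.15 in wild-type cells, and Adra2c lay under the limit on all 6 arrays.

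Among 99 members that were not tested, 6 had groups that did not overlap, 4 higher and 2 lower in Aire-deficient cells. The share over all untested probe sets was not computed, so this count is a description and no result about the members. Of all 7768 tested probe sets, 784 were lower and 805 higher without overlap, and of the 51 tested members 5 and 7. The higher ones were Kcnj3, Kcnab3, Grm8 and the Grik5 probe set 104409_at, and the lower ones Scn1a 162255_s_at and Gabrr2. Kcnj3, a G protein-gated channel of heart and brain, read 8.60, 5.09 and 5.15 in Aire-deficient cells, against 3.80, 2.58 and 0.567 in wild-type cells. In 3 of the 6, namely Grm8, Grik5 104409_at and Gabrr2, all 6 arrays lay under the dim limit, where signals have no firm order. Members whose genes lie within 500 kb of another formed 13 groups of 30 genes, such as Kcna5, Kcna1 and Kcna6 on chromosome 6, all of whose 4 probe sets lay under the limit on all 6 arrays.

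Only 5 probe sets, of Clcn3, Grin2c, Grina and Kcnj9, lay above the highest opposite-strand control on every array as deposited. Grina, taken in by its letters alone and related to anti-apoptotic membrane proteins, read 58.2, 96.7 and 99.7 in Aire-deficient cells and 54.4, 69.4 and 79.0 in wild-type cells with 99161_at. Of the 26 genes with more than 1 probe set, 3 had all of them above the limit on all 6 arrays and 17 had none above it on all 6. In 2 genes, Grik5 and Htr4, 1 probe set lay above the limit on all 6 arrays and another under it on all 6. The choice of probe set thus decided whether those genes counted as above the limit.

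Other genes of excitable cells were taken from lists of related function. Over all tested probe sets, 1.38% were called lower and 0.348% higher, and with the block 3.37% and 1.93%. No list was tested against those shares. Of 43 listed ion channels of other families, 23 were on the array with 35 probe sets, of which 21 were tested and 1 rose. It was Ryr3, a calcium release channel of the endoplasmic reticulum, which read 35.2, 62.5 and 48.0 in Aire-deficient cells with 97126_at, against 20.5, 12.8 and 12.9 in wild-type cells, a log2 difference of 1.65 ± 0.35 (SE; limma adjusted p = 0.0431). The second Ryr3 probe set, 101830_at, overlapped and differed by 0.30 (adjusted p = 0.817). With the block, 3 of these were called lower, namely Clca1 (-2.17, adjusted p = 0.00844), Clca3a1 (-1.27, adjusted p = 0.0191) and Itpr2 101441_i_at (-1.10, adjusted p = 0.0284), against limma adjusted p of 0.136, 0.183 and 0.301 without it. Of 54 listed genes of synaptic release, scaffolds and transmitter metabolism, 36 were present with 24 tested probe sets, of which 1 rose. It was Maoa, which breaks down serotonin and noradrenaline, at 168, 94.0 and 81.1 in Aire-deficient cells, against 26.7, 10.9 and 16.8 in wild-type cells (2.68 ± 0.41 SE; limma adjusted p = 0.0107). Its other probe sets lay under the limit on all 6 arrays. With the block, Snap91 (1.34, adjusted p = 0.0173) and Gphn (1.15, adjusted p = 0.0328), of the endocytic and inhibitory synapse machinery, were called higher too and the kinase Camk2b (-1.43, adjusted p = 0.0138) lower, against limma adjusted p of 0.0600, 0.0993 and 0.123 without it. Of 52 listed receptors for other transmitters and peptides, 38 were present, 13 probe sets were tested and 0 passed either fit. The smallest p was that of Npy2r, a receptor for neuropeptide Y (log2 difference -1.39; limma adjusted p = 0.218).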

How the data were processed

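The authors deposited linear signal intensity per probe set of 6 Affymetrix arrays, given to 1 decimal. Per the labels, a T7 polymerase method amplified the RNA in 2 rounds, which favours 3' ends. The sources used here name no software, background correction or scaling for these signals, and no detection calls were used.

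Of 12488 probe sets, 66 controls were left out. Gene names came from the platform annotation, and all 150 members matched GRCm38.p6 by Entrez identifier with 0 symbols updated; that assembly also gave the neighbours. The arrays' 2% trimmed means ranged from 19.6 to 26.9, so signals were quantile normalized, raised to a floor at the 20th percentile of all arrays together (1.8) and log2 transformed. The 7768 probe sets that passed the 40th percentile (5.53, the dim limit) in 3 or more arrays were tested with limma 3.58.1 in R 4.3.3 (lmFit, eBayes with trend, 2-sided), Benjamini-Hochberg adjusted over all tested, at a threshold of 0.05. If a group was under the limit throughout, a fold is the other group's geometric mean over the limit and is written "at least"; no level of 1 probe set was set against that of another. The floor shortens the log2 difference of dim probe sets.

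Each array is a pool of 5 mice. The p-values cover pool-to-pool variation, amplification and hybridisation included, and the number of arrays limits the precision. Deviations from group means were correlated to see whether the replicate numbers pair arrays across groups: same-numbered arrays gave 0.372, 0.198 and 0.193, and others gave -0.253 to 0.0676. Since every same-numbered value was above 0.1, arrays of 1 number were treated as a pair, on this basis alone, as the labels say nothing of what the numbers mean.

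Members, lists and tests were chosen with earlier results of these data known. Named are members called in either fit, tested members without overlap and at least 2-fold apart, for each class the most intense probe set and the largest tested differences, genes with several tested probe sets, neighbours within 500 kb and up to 3 genes per related list; others were chosen after their values were seen, to account for every class. Alternatives changed the scaling, floor, dim limit, filter, variance trend, array weights, probe sets per gene, block, 3' bias and arrays used. Promoters were found for 89 of the 118 genes (75.4%), too few for a comparison over members. The test was checked on simulated data. Figures used matplotlib 3.10.9.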

Additional observations from a re-analysis of the deposited data

How the results depend on the processing

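In all settings 0 members were called lower. Gria1 was the 1 member called higher with the filter asking for all 3 arrays of 1 group, the dim limit at the 30th percentile, no variance trend, array weights and the replicate block, and 0 were called in the others. In each of those settings its probe set was kept only through the Aire-deficient arrays. A difference between groups was thus built into its being tested, most directly by the filter on 1 group, and these calls are not independent of each other. Over all probe sets the replicate block, which rests on correlations within these data, called 262 lower and 150 higher. It changed no other member's call. Array weights called 166 lower and 72 higher, and no filter 10 lower and 6 higher. Values as deposited gave 71 higher and 102 lower, median scaling 55 higher and 97 lower, and the filter on 1 group 43 higher, against 27 higher and 107 lower. As deposited and with median scaling the median of all tested was 0.172 and 0.173, against 0.047 here, while that of the members tested was 0.0030 and 0.0044, against 0.033. Leaving out 1 array called 2 to 76 lower and 0 to 9 higher; without wild-type replicate 3 these were 2 and 0, with 469 and 555 at an unadjusted p under 0.05. The median over tested members was -0.084 with 1 probe set per gene and -0.056 to 0.157 without 1 array. Members under the limit on all 6 arrays numbered 35 and 100 with the limit at the 30th and 50th percentile.

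The sign of the log2 difference turned in at least 1 setting for 23 of the 51 tested members. With the 3' bias covariate it turned for Kcnj4 (-0.14), Kcnk7 (0.20), Kcnma1 (0.19), Clcn4 104704_at (-0.038), Clcn5 101913_at (0.29), Gria3 (0.21), Chrnb1 (-0.23), Chrnd (-0.15), Htr1d (-0.11) and Drd4 (0.075). With array weights it turned for Kcnj4 (-0.014), Kcnk4 (0.24), Kcnk7 (0.035), Cacna1b (-0.28), Cacnb2 (0.018), Clcn5 101913_at (0.081), Gria3 (0.62), Chrnd (-0.067), Htr1d (-0.18) and Drd4 (0.11). Clcn5 101913_at was 0.11 as deposited and 0.11 with median scaling, and with the floor at the 40th percentile Kcns1 was 0.015 and Clcn5 161451_r_at -0.17. Without 1 array, where still tested, the ranges that crossed 0 were -0.80 to 0.079 (Kcnq1 161796_r_at), -0.39 to 0.43 (Kcns1), -0.70 to 0.14 (Kcnj11), -0.10 to 0.20 (Kcnj4), -1.39 to 0.34 (Kcnk1), -0.83 to 0.29 (Kcnk4), -0.72 to 0.51 (Kcnk7), -0.42 to 0.12 (Kcnma1), -0.21 to 0.57 (Cacna1b), -0.37 to 0.14 (Cacna1h), -0.43 to 0.053 (Cacnb2), -0.46 to 0.23 (Clcn5 101913_at), -0.46 to 0.59 (Clcn5 161451_r_at), -1.05 to 0.022 (Glra1), -0.65 to 0.49 (Gria3), -0.28 to 0.57 (Chrnb1), -0.15 to 0.84 (Chrnd), -0.29 to 0.44 (Htr1d), -0.077 to 0.91 (Htr3a), -0.056 to 0.48 (Htr4 95322_g_at), -0.15 to 0.55 (Htr5a) and -0.47 to 0.12 (Drd4). The cause of these shifts was not tested.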
